A study of Mus musculus with 23 samples.

Results

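The genes described here were 8 genes of the liver X receptor (LXR) pathway and of sterol export, measured in the ileum of WT and *Pxr*-/- mice given the pregnane X receptor (PXR) ligand PCN or its vehicle. They comprised both LXR genes (*Nr1h2* and *Nr1h3*), 4 transporters that move sterol out of cells (*Abca1*, *Abcg1*, *Abcg5* and *Abcg8*) and 2 further LXR targets (*Mylip* and *Lpcat3*). All probes carrying one of these gene names in the scanner files were taken, which gave 13 of the 56605 probes on the array and 12 of the 37161 probes in the deposited expression table. All 8 genes were in that table, among 17574 named genes. The brightest probe of each gene was described first and any other probe beside it.

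LXRs are nuclear receptors activated by oxysterols, the oxidised products of cholesterol, and bind DNA with the retinoid X receptor. In the small intestine LXR target transporters limit the body's sterol load, since the Abcg5 and Abcg8 proteins form 1 pump that returns sterol from the enterocyte to the gut lumen while Abca1 loads cholesterol onto apolipoprotein A-I on the blood side. PXR is a sister receptor that senses drugs and bile acids and is best known for inducing drug-metabolising enzymes.

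Ileum RNA from 23 male mice was hybridised to 1-colour Agilent arrays, 1 array per mouse. WT CONT (n = 6) and WT PCN (n = 5) were C57BL/6J mice bought at 6 weeks of age, while *Pxr*-/- CONT (n = 6) and *Pxr*-/- PCN (n = 6) carried the PXR knockout, were backcrossed on the same strain and had been bred in the study's own facility for 10 years. All mice were acclimatised for 2 weeks. Age of the *Pxr*-/- mice was not given in the sources used here, and differences between genotypes cannot be told apart from those of breeding origin. PCN (pregnenolone 16α-carbonitrile) was injected intraperitoneally at 100 mg/kg once a day for 4 days in corn oil, CONT mice received corn oil alone, and all mice were killed 6 h after the last injection. Values are log2 intensities as normalised by the authors. PCN and genotype effects were estimated with limma across all 37161 probes with wash batch as a covariate, and a probe was called when the Benjamini-Hochberg adjusted p was at or below 0.05 and the fold change exceeded 1.5.

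Between 62.7% and 68.8% of probes were well above background on each array. *Cyp3a11*, the classical PXR target, rose by 3.53 on the log2 scale with PCN in WT (adjusted p 1.49e-06, limma) and changed by -0.05 in *Pxr*-/- (adjusted p 0.952), while *Cyp2c55*, another PXR target, rose by 3.51 in WT and by 1.58 in *Pxr*-/- (adjusted p 0.000149 and 0.0484). The probe of *Nr1i2*, the gene of PXR itself, averaged 12.14 and 12.17 in WT CONT and WT PCN and 11.73 and 11.71 in the *Pxr*-/- groups, and where it lies relative to the deleted part was not given in the sources used here, so it checked no label. All 8 enterocyte markers were above background, at a mean level of 14.60 to 15.36 over the arrays. On 3 arrays the mean level of 5 B cell markers stood apart, WT PCN replicate 2 (10.66), WT PCN replicate 3 (10.75) and *Pxr*-/- PCN replicate 1 (9.07), against 7.28 to 7.76 on the CONT arrays. PCN and genotype effects on the 8 genes, and the counts of calls, were also computed without these 3 arrays. Correlations, the search for genes of like pattern and the other gene lists were not. In bulk tissue, fewer cells of a type and less RNA per cell cannot be told apart.

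The DNA before the starts of *Abca1* and of the neighbouring pair *Abcg5* and *Abcg8* is shown first, since the comparisons turn on these 3 genes. LXR with its partner binds a direct repeat of AGGTCA with 4 bases between the copies. Promoter windows of 300 bases (250 before the start and 50 after) from RefSeq were held for 7 of the 8 genes, in 9 windows on build GRCm38.p6, and not for *Abcg1*. The 250 bases before the *Abca1* start, at chr4:53159896-53160145 on the minus strand, held the repeat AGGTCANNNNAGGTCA with 3 mismatches, on the strand opposite to the gene and with 51 bases between it and the start. Capitals mark that match. *Abcg5* and *Abcg8* point away from each other on chromosome 17, and the 109 bases between their starts, at chr17:84683012-84683120 on the plus strand, held no copy of AGGTCA on either strand.
Abca1 before the start: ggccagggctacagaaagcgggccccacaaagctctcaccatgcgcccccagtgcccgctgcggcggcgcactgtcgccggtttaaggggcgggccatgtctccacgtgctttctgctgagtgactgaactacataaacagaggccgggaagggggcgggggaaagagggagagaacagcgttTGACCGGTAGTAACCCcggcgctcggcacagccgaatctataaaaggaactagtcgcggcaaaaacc
between Abcg5 and Abcg8: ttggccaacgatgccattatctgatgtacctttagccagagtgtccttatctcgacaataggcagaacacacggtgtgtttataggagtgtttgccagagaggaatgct
Searched on both strands, AGGTCA lay in 0 of the 9 windows of these genes and in 16.3% of 32851 promoter windows of all genes. The repeat was found with at most 2 mismatches in 0 of 9 windows against 3.02% of all windows, and with at most 3 mismatches in 1 of 9 against 21.9%. The *Abcg5* window and an *Abcg8* window share 209 bases, and the *Nr1h3* windows also overlap, so the 9 windows are not separate sequences. These matches describe letters in short windows and say nothing about binding further away.

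In WT mice *Abca1* rose with PCN, and *Abcg5* and *Abcg8* were higher on every WT PCN array than on any WT CONT array without being called. How many of all probes had groups that did not overlap was not counted, for this or any later comparison. *Abcg1*, *Nr1h2*, *Nr1h3*, *Mylip* and *Lpcat3* were not called. The count was 1 of 8 genes called, where 0.692% of all probes tested were called. The median log2 change of the 8 genes was 0.11, with 6 of 8 higher, beside a median of -0.01 over all probes, of which 45.1% were higher. All 4 exporters had a higher mean in WT PCN. For *Abcg1* this was by 0.09, and the sign turned without the 3 arrays high in B cell markers.

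*Abca1*, whose brightest probe lies at chr4:53043944-53044003 on build mm9, had WT CONT levels from 8.26 to 8.98 with a median of 8.75. The 5 WT PCN arrays read 9.28, 9.75, 9.53, 9.85 and 9.33. Every WT PCN array was thus above every WT CONT array, with the nearest values 8.98 and 9.28. The group means were 8.70 ± 0.289 (SD, n = 6) and 9.55 ± 0.253 (SD, n = 5), which gave a log2 change of 0.85 (SE 0.130, 1.81-fold, 95% interval 0.58 to 1.12, adjusted p 0.000679, limma). Within wash batch 1 the change was 0.88 and within wash batch 2 it was 0.86. Without the 3 arrays high in B cell markers it was 0.81 (adjusted p 0.0103, limma). A second and dimmer *Abca1* probe, at chr4:53048405-53049145, was above background on 17 of 23 arrays and changed by 0.41 (adjusted p 0.138, limma), with 4 of 5 WT PCN arrays above all WT CONT arrays. The second probe therefore moved the same way but was not called.

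**Figure D1:**
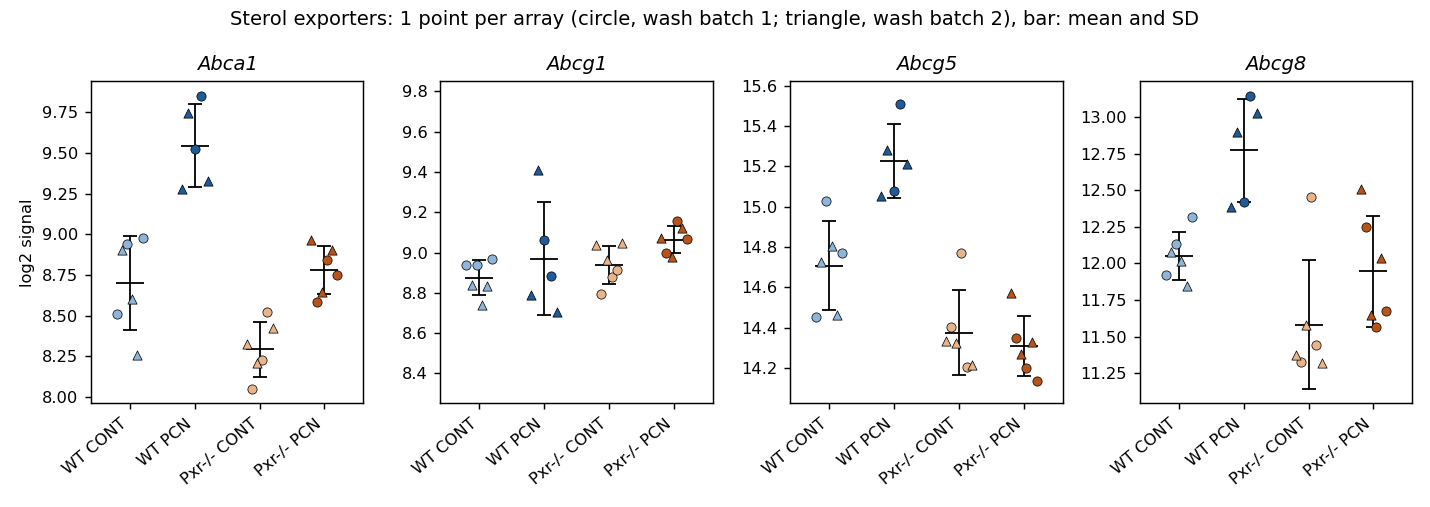
Log2 intensity of the brightest probe of Abca1, Abcg1, Abcg5 and Abcg8 on each array (circles, wash batch 1; triangles, wash batch 2), with mean and SD per group. All WT PCN arrays lie above all WT CONT arrays for Abca1, Abcg5 and Abcg8 and overlap them for Abcg1, and the single high Pxr-/- CONT array for Abcg5 (14.77) and Abcg8 (12.46) is replicate 4.

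*Abcg5*, a subunit of the luminal sterol pump (probe at chr17:85057604-85057663, mm9), ranged from 14.45 to 15.03 in WT CONT with a median of 14.75. WT PCN arrays read 15.06, 15.28, 15.08, 15.51 and 15.21. The groups did not overlap, although the highest WT CONT array (15.03) and the lowest WT PCN array (15.06) almost touched. The change of 0.52 (SE 0.115, 1.44-fold, 95% interval 0.29 to 0.76) had an adjusted p of 0.0203 (limma) and stayed under the fold threshold. It was 0.54 and 0.52 within the 2 wash batches and 0.57 (adjusted p 0.0371, limma) without the arrays high in B cell markers.

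*Abcg8*, the partner subunit (chr17:85099609-85099668, mm9), ran from 11.84 to 12.32 in WT CONT with a median of 12.05. In WT PCN the arrays read 12.38, 12.89, 12.42, 13.14 and 13.03. Again no WT PCN array fell among the controls, but the 5 arrays were more spread, 3 of them at or above 12.89 and 2 close to the controls. With means of 12.05 ± 0.167 (SD, n = 6) and 12.77 ± 0.351 (SD, n = 5) the change was 0.73 (SE 0.200, 1.66-fold, 95% interval 0.31 to 1.14, adjusted p 0.0806, limma), past the fold threshold but not past that for p. This call depended on single arrays. Without WT PCN replicate 3 the change was 0.84 and called (adjusted p 0.0494, limma), and without *Pxr*-/- CONT replicate 4, which enters through the shared spread and wash batch terms, it was 0.72 and called (adjusted p 0.0246, limma).

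*Abcg1*, which exports cholesterol to high-density lipoprotein and is abundant in macrophages (chr17:31252580-31252639, mm9), lay between 8.74 and 8.97 in WT CONT with a median of 8.89. WT PCN arrays read 8.79, 9.41, 9.06, 8.89 and 8.71. The 2 arrays above all controls were replicates 2 and 3, the same 2 that were high in B cell markers, and the other 3 lay inside or below the control range. The change was 0.09 (SE 0.0936, adjusted p 0.766, limma), and without the 3 arrays high in B cell markers its sign turned, to -0.08 (adjusted p 0.748, limma). The part of B cells in this value was not tested.

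In *Pxr*-/- mice no member was called with PCN, 0 of 8, where 0.947% of all probes were called by limma. With slide as a fixed block the count was 1 of 8, *Abca1*, while the 0.947% belongs to the model with wash batch. By unadjusted p under 0.05, 3 of 8 members and 7281 of 37161 probes passed. *Abca1* and *Mylip* were higher on all 6 *Pxr*-/- PCN arrays than on any *Pxr*-/- CONT array, by less than 1.5-fold. The share of all probes that separated these 2 groups was not counted. The median log2 change of the 8 genes was 0.22, against -0.01 over all probes. A higher mean with PCN was seen for 5 of 8 genes and 3 of the 4 exporters, beside 47.0% of all probes.

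*Abca1* ran from 8.05 to 8.52 in *Pxr*-/- CONT (median 8.28) and from 8.59 to 8.97 in *Pxr*-/- PCN (median 8.79). The 2 groups did not overlap, and their nearest arrays were 8.52 and 8.59. The change of 0.49 (SE 0.123, 1.40-fold, 95% interval 0.23 to 0.74) had an adjusted p of 0.0289 (limma) and was not past the fold threshold. It was 0.46 and 0.52 within the wash batches, and with slide as a fixed block it was 0.60 and called (adjusted p 0.0149, limma). Without the array high in B cell markers of this group and the 2 of WT PCN, it was 0.44 with an adjusted p of 0.0830 (limma). The dim second probe changed by 0.10 (adjusted p 0.681, limma).

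*Abcg5* levels overlapped in the knockout. They were 14.21 to 14.77 in *Pxr*-/- CONT (median 14.33) and 14.14 to 14.57 in *Pxr*-/- PCN (median 14.30), so the PCN arrays lay inside or below the control range. The change was -0.07 (SE 0.110, 95% interval -0.29 to 0.16, adjusted p 0.781, limma). Within wash batch 1 it was -0.23 and within wash batch 2 it was 0.10. Without *Pxr*-/- CONT replicate 4, the highest control, it was 0.01 (adjusted p 0.967, limma).

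*Abcg8* spread more widely, from 11.32 to 12.46 in *Pxr*-/- CONT (median 11.41) and from 11.57 to 12.51 in *Pxr*-/- PCN (median 11.86). Only 1 PCN array lay above the highest control, which was again replicate 4, while 5 of 6 PCN arrays lay above the control mean. The change was 0.36 (SE 0.190, 95% interval -0.03 to 0.76, adjusted p 0.296, limma), 0.09 within wash batch 1 and 0.64 within wash batch 2. Leaving out *Pxr*-/- CONT replicate 4 gave 0.54 (adjusted p 0.0625, limma). *Abcg1* was 8.79 to 9.05 in *Pxr*-/- CONT (median 8.94) and 8.98 to 9.15 in *Pxr*-/- PCN (median 9.07), with 4 of 6 PCN arrays above all controls and a change of 0.13 (adjusted p 0.456, limma).

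**Figure D2:**
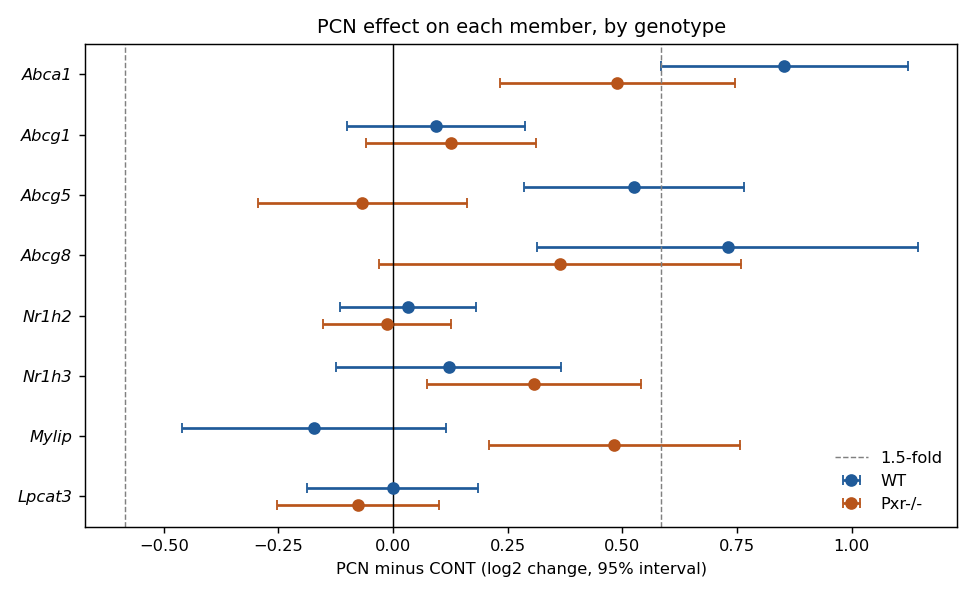
PCN effect as log2 change (point) with its 95% interval (bar) for the 8 genes, in WT and in Pxr-/- mice, from limma. Dashed lines mark a 1.5-fold change, and the intervals of Abca1 exclude 0 in both genotypes (0.58 to 1.12 and 0.23 to 0.74), whereas that of Abcg5 does so in WT (0.29 to 0.76) and spans 0 in Pxr-/- (-0.29 to 0.16).

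Whether the PCN effect itself differed between genotypes was tested by the interaction of genotype and PCN, for which 0 of 8 members were called where 0.078% of all probes were. With the unadjusted p under 0.05 the members *Abcg5* and *Mylip* passed, and 1679 of 37161 probes did. For *Abcg5* the effect in *Pxr*-/- minus that in WT was -0.59 (SE 0.159, 95% interval -0.92 to -0.26, adjusted p 0.392, limma). For *Mylip* it was 0.65 (SE 0.192, 95% interval 0.26 to 1.05, adjusted p 0.591, limma), in the opposite direction. The differences were -0.36 for *Abca1* (95% interval -0.73 to 0.01), -0.37 for *Abcg8* (-0.94 to 0.21) and 0.03 for *Abcg1* (-0.24 to 0.30), each with an adjusted p of 1.000 by limma. These intervals were too wide to show that the effect of PCN on *Abca1* or *Abcg8* was alike in the 2 genotypes.

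Genotypes were then compared on the same treatment. Without PCN, 0 of 8 members were called where 0.148% of all probes were called by limma, and 4 of 8 members had an unadjusted p under 0.05 beside 3354 of 37161 probes. With slide as a fixed block 2 of 8 members were called, *Abcg8* (-0.67, adjusted p 0.0399, limma) and *Mylip* (-0.60, adjusted p 0.0389, limma), and the probes called went from 55 to 257. Of the 8 means, 6 were lower in *Pxr*-/- CONT than in WT CONT, with a median difference of -0.26 against 0.00270 over all probes. Of all probes 51.1% were higher in *Pxr*-/- CONT. The differences were -0.41 for *Abca1* (adjusted p 0.219, limma), -0.33 for *Abcg5* (adjusted p 0.284, limma) and -0.47 for *Abcg8* (adjusted p 0.442, limma). For *Abcg5* and for *Abcg8*, 5 of 6 *Pxr*-/- CONT arrays lay below all WT CONT arrays and the exception was replicate 4.

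With PCN in both genotypes, *Abcg5* and *Abca1* were called lower in *Pxr*-/-, 2 of 8 members where 0.366% of all probes were called. *Abcg5* differed by -0.92 (SE 0.115, 95% interval -1.16 to -0.68, 0.528 of the WT PCN level, adjusted p 5.46e-05, limma). All 6 *Pxr*-/- PCN arrays (at most 14.57) were below all 5 WT PCN arrays (at least 15.06). *Abca1* differed by -0.77 (SE 0.130, 95% interval -1.04 to -0.50, 0.586 of the WT PCN level, adjusted p 0.00245, limma), and the highest *Pxr*-/- PCN array (8.97) was again below the lowest WT PCN array (9.28). The second *Abca1* probe gave -0.33 (adjusted p 0.483, limma). *Abcg8* differed by -0.83 (SE 0.200, adjusted p 0.0590, limma), with 5 of 6 arrays below all WT PCN arrays. Without the 3 arrays high in B cell markers the *Abcg8* difference was -1.07 and was called (adjusted p 0.0372, limma), and it was also called with slide as a fixed block (-0.80, adjusted p 0.0397, limma).

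Ordered by mean level, WT PCN stood highest for *Abca1*, *Abcg5* and *Abcg8*. For *Abca1* the order below it was *Pxr*-/- PCN (8.78 ± 0.149), WT CONT (8.70 ± 0.289) and *Pxr*-/- CONT (8.29 ± 0.169), and the first 2 of these differed by less than their SD. For *Abcg5* the order was WT CONT (14.71 ± 0.220), *Pxr*-/- CONT (14.38 ± 0.209) and *Pxr*-/- PCN (14.31 ± 0.150), of which the last 2 were within 1 SD of each other. For *Abcg8* it was WT CONT (12.05 ± 0.167), *Pxr*-/- PCN (11.95 ± 0.380) and *Pxr*-/- CONT (11.58 ± 0.438), with neighbours within 1 SD. For *Abcg1* all 4 means lay between 8.88 and 9.06.

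*Abcg5* and *Abcg8* varied together from array to array. Over 23 arrays their levels correlated with Pearson's r of 0.868 (p 1e-05, the smallest that 100000 resamples of the permutation test can give, adjusted p 0.00014 over 28 pairs of members) and Spearman's rho of 0.825 (permutation p 2e-05, adjusted p 0.00056). Without the 2 arrays farthest from the *Abcg5* median, r was 0.800, and within wash batches 1 and 2 it was 0.858 (n = 11) and 0.885 (n = 12). After subtracting the mean of each group it was 0.801, so arrays of one group that were high for *Abcg5* were also high for *Abcg8*. *Abcg8* and *Nr1h3* gave r of 0.705 (permutation p 0.00014, adjusted p 0.00098) and rho of 0.766 (permutation p 6e-05, adjusted p 0.00084), with 0.706 without the 2 farthest arrays, 0.778 and 0.638 within wash batches and 0.725 around group means. These pooled values include the differences between groups, since the WT PCN arrays of *Abcg5* all lay at or above 15.06 and the other arrays at or below 15.03. For *Abca1* a wider gap, from 8.98 to 9.28, set the WT PCN arrays apart, so its relations to other members are given only after subtracting the group means. Around group means it correlated with *Abcg5* at 0.435 and with *Abcg8* at 0.290, given as descriptions. The points share group, wash batch and slide.

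**Figure D3:**
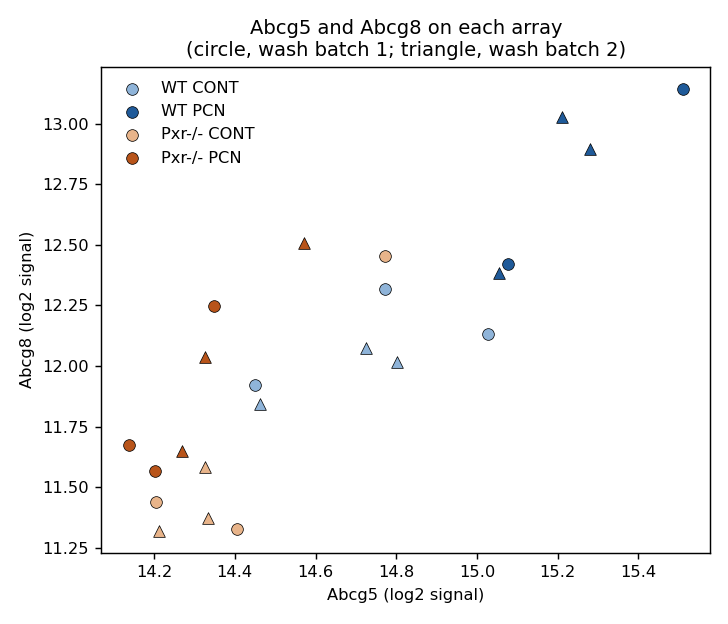
Log2 intensity of Abcg8 (vertical) against Abcg5 (horizontal) for the 23 arrays, by group and wash batch (circles, wash batch 1; triangles, wash batch 2). Arrays high for Abcg5 are high for Abcg8 (r 0.868), and the 5 WT PCN arrays form the right end, with 2 of them (12.38 and 12.42 for Abcg8) below the highest Pxr-/- arrays (12.46 and 12.51).

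Genes with the pattern most like that of *Abcg5* among 17573 others were *Cyp3a57*, *Cyp3a25* and *Cyp3a59*, drug-metabolising P450 enzymes, with Pearson's r over 23 arrays of 0.941, 0.939 and 0.936 and of 0.81, 0.83 and 0.77 around group means. Those *Cyp3a* genes are close relatives, and cross-binding among their probes was not resolved. Nearest to *Abca1*, with its WT PCN arrays apart from the rest, were *Defb39*, *Ces2a* and *R3hdm1*, with r of 0.905, 0.903 and 0.901, which fell to 0.414, 0.472 and 0.632 around group means. The pooled values only rank genes by likeness, include the differences between groups and have no test.

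Neither receptor gene was called in any comparison. *Nr1h2*, which encodes the broadly expressed LXRβ (chr7:51805013-51805072, mm9), ranged from 12.87 to 13.20 in WT CONT (median 13.08), and its WT PCN arrays read 13.14, 13.18, 13.07, 13.01 and 13.07. In *Pxr*-/- it ran from 13.01 to 13.19 without PCN (median 13.09) and from 12.86 to 13.22 with PCN (median 13.10). All 4 groups overlapped. PCN effects were 0.03 in WT (95% interval -0.11 to 0.18, adjusted p 0.924, limma) and -0.01 in *Pxr*-/- (95% interval -0.15 to 0.13, adjusted p 0.938, limma). The second probe (chr7:51807934-51808069) gave 0.03 and 0.01.

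*Nr1h3*, which encodes LXRα, the form enriched in liver, intestine and macrophages (chr2:91024250-91024309, mm9), ran from 11.97 to 12.34 in WT CONT (median 12.20). WT PCN arrays read 12.05, 12.45, 12.22, 12.47 and 12.28. *Pxr*-/- CONT ran from 11.78 to 12.20 (median 11.95) and *Pxr*-/- PCN from 11.93 to 12.60 (median 12.29). The groups overlapped in each genotype, with 2 of 5 WT PCN and 3 of 6 *Pxr*-/- PCN arrays above all their controls. PCN effects were 0.12 in WT (SE 0.118, adjusted p 0.759, limma) and 0.31 in *Pxr*-/- (SE 0.113, 95% interval 0.07 to 0.54, adjusted p 0.128, limma). A second probe (chr2:91024435-91024494) gave 0.11 in WT and 0.15 in *Pxr*-/- (adjusted p 0.448, limma).

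**Figure D4:**
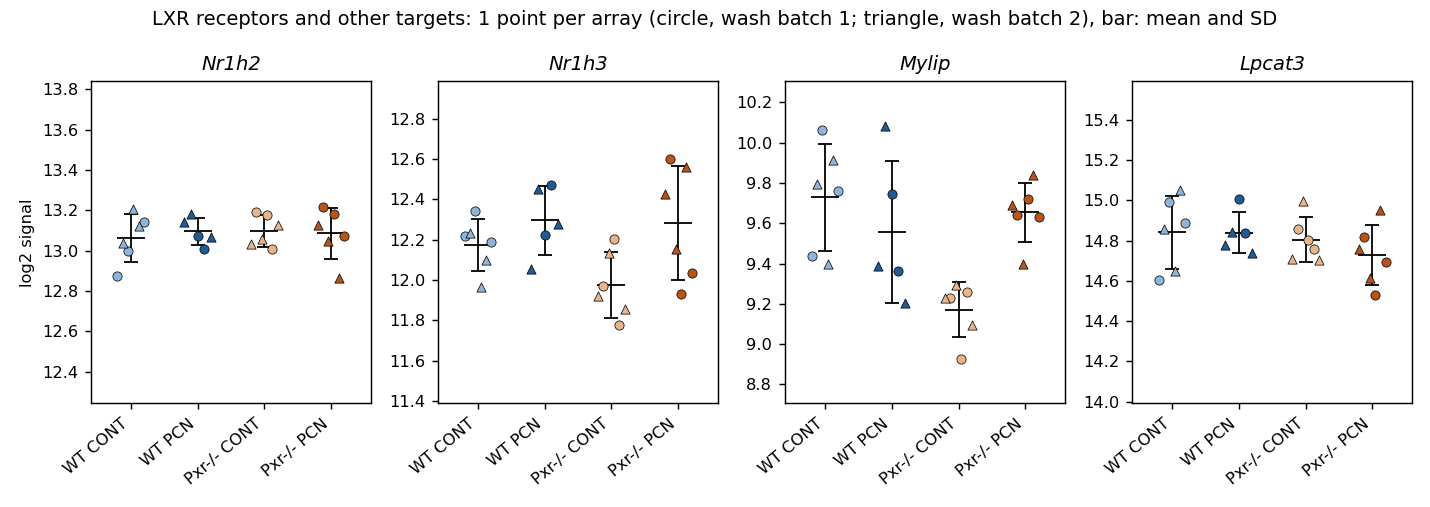
Log2 intensity of the brightest probe of Nr1h2, Nr1h3, Mylip and Lpcat3 on each array (circles, wash batch 1; triangles, wash batch 2), with mean and SD per group. Nr1h2 and Lpcat3 overlap in all 4 groups, and the Pxr-/- CONT arrays of Mylip (8.93 to 9.29) lie below all arrays of WT CONT (9.40 to 10.06) and of Pxr-/- PCN (9.40 to 9.84).

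*Mylip* encodes the ubiquitin ligase Idol, an LXR target that sends the LDL receptor to degradation. Its probe (chr13:45506979-45507038, mm9) gave 9.40 to 10.06 in WT CONT (median 9.78), and the WT PCN arrays read 9.39, 10.08, 9.74, 9.36 and 9.21. The WT groups overlapped, with 3 of 5 WT PCN arrays below all controls and 1 above. The 2 highest WT PCN arrays were again replicates 2 and 3, those high in B cell markers. The WT effect was -0.17 (SE 0.139, 95% interval -0.46 to 0.12, adjusted p 0.694, limma), and without the 3 arrays high in B cell markers it was -0.41 (adjusted p 0.188, limma).

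In *Pxr*-/- mice *Mylip* ran from 8.93 to 9.29 without PCN (median 9.23) and from 9.40 to 9.84 with PCN (median 9.67). The 2 groups did not overlap. The effect was 0.48 (SE 0.132, 1.40-fold, 95% interval 0.21 to 0.76, adjusted p 0.0435, limma), under the fold threshold, with 0.53 and 0.44 within the wash batches and 0.47 (adjusted p 0.0356, limma) without the arrays high in B cell markers. Without PCN, all 6 *Pxr*-/- arrays lay below all 6 WT arrays, a difference of -0.56 (SE 0.132, 0.680 of the WT CONT level, adjusted p 0.0858, limma). This difference was called when WT CONT replicate 4 was left out (-0.63, adjusted p 0.0489, limma). With PCN the genotypes differed by 0.10 (adjusted p 1.000, limma). *Mylip* and *Abcg1* correlated at 0.713 around group means, as a description. Over all arrays pooled, Pearson's r was 0.467 (permutation test, adjusted p 0.0946), and 0.245 without the 2 arrays farthest from the *Abcg1* median.

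*Lpcat3* encodes an acyltransferase that puts polyunsaturated chains on membrane phospholipids and is strongly expressed in enterocytes. Its brightest probe (chr6:124654029-124654088, mm9) ranged from 14.60 to 15.05 in WT CONT (median 14.87), and WT PCN arrays read 14.78, 14.84, 15.01, 14.84 and 14.74. *Pxr*-/- CONT ran from 14.71 to 15.00 (median 14.78) and *Pxr*-/- PCN from 14.53 to 14.95 (median 14.73). All groups overlapped. The PCN effects were -0.000729 in WT (95% interval -0.19 to 0.19) and -0.08 in *Pxr*-/- (95% interval -0.25 to 0.10, adjusted p 0.662, limma). The second probe (chr6:124653374-124653542) gave 0.02 and -0.02.

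Among other genes of the pathway, 13 further LXR targets were measured and 0 of 13 were called by limma in either genotype, with 1 of 13 in WT and 7 of 13 in *Pxr*-/- at an unadjusted p under 0.05. Over all probes 11.8% in WT and 19.6% in *Pxr*-/- had such a p, which is the background for this and the following lists. Of all probes 0.692% and 0.947% were called, and 45.1% and 47.0% were higher with PCN. The 13 LXR targets had a median change of 0.05 in WT and -0.04 in *Pxr*-/-. The fatty acid desaturases *Scd1* and *Scd2* had values of 0.05 and 0.54 in WT and of -0.98 and -0.54 in *Pxr*-/- (adjusted p 0.114 and 0.0873 in *Pxr*-/-, limma). Of 8 LXR partners and co-regulators, 0 were called in either genotype by limma (0 and 1 at an unadjusted p under 0.05), and the coactivators *Ncoa3* and *Ncoa1* had values of 0.16 and -0.10 in WT.

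Enzymes that make or remove oxysterols gave calls in both genotypes. *Ch25h*, a hydroxylase that makes an oxysterol, rose by 0.76 in WT (adjusted p 0.0483, limma), with all 5 WT PCN arrays above all controls, and by 0.66 in *Pxr*-/- (adjusted p 0.0432, limma), with 6 of 6 above. *Cyp7b1*, which hydroxylates oxysterols further, rose by 0.67 in *Pxr*-/- (adjusted p 0.00346, limma), and its WT value was 0.41 (adjusted p 0.109, limma). These were the calls among 7 oxysterol genes, 1 in WT and 2 in *Pxr*-/-, where 0.692% and 0.947% of all probes were called.

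Cholesterol synthesis genes, controlled by the neighbouring sterol sensor SREBP, gave calls in *Pxr*-/-. In WT 0 of 12 genes were called (3 at an unadjusted p under 0.05, limma), 11 of 12 were higher and the median was 0.18. In *Pxr*-/- 2 of 12 were called, both lower (9 of 12 at an unadjusted p under 0.05, limma). Only 1 of 12 had a higher mean and the median was -0.34. *Idi1*, an isoprenoid isomerase of the synthesis pathway, fell by 0.61 in *Pxr*-/- (adjusted p 0.0132, limma) and had a value of 0.16 in WT. For the interaction the median of the list was -0.54 with 0 of 12 called and 10 of 12 at an unadjusted p under 0.05, beside a median of 0.000297 over all probes, of which 0.078% were called and 4.52% had such a p.

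**Figure D5:**
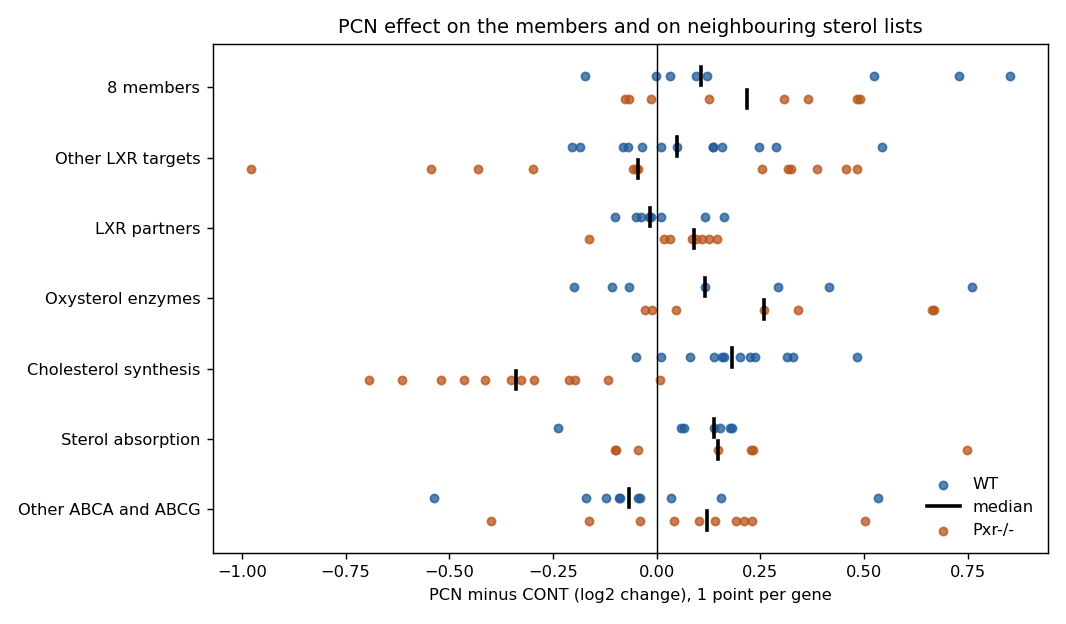
PCN effect as log2 change for every measured gene (1 point per gene, brightest probe) of the 8 genes and of 6 other sterol lists, in WT and in Pxr-/-, with the median of each list as a bar. Cholesterol synthesis has a median of 0.18 in WT and of -0.34 in Pxr-/-, while the other LXR targets have medians of 0.05 and -0.04 with genes on both sides of 0.

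Of 6 lipoprotein receptors, 7 genes of sterol absorption and 6 of intracellular sterol transport, 0 were called by limma for PCN in either genotype (2, 0 and 0 in WT and 2, 1 and 4 in *Pxr*-/- at an unadjusted p under 0.05). *Scarb1*, a receptor for high-density lipoprotein, had values of 0.32 in WT (adjusted p 0.0546, limma) and 0.51 in *Pxr*-/- (adjusted p 0.00108, limma), the latter under the fold threshold, and *Cd36*, a fatty acid and lipoprotein receptor, had 0.03 and 0.38. *Apoa4* and *Apob*, apolipoproteins of chylomicrons, had values of -0.24 and 0.14 in WT and of 0.75 and 0.23 in *Pxr*-/-. *Lipa*, the lysosomal lipase, and *Stard4*, a sterol carrier, had values of -0.05 and 0.14 in WT and of 0.34 and 0.30 in *Pxr*-/-. *Lpcat4*, a relative of *Lpcat3*, fell by 0.60 in *Pxr*-/- (adjusted p 0.0282, limma) and had a WT value of -0.48 (adjusted p 0.168, limma). *Lpcat4* was the call among 5 other lysophospholipid acyltransferases, where *Mboat2* had values of -0.23 in WT and 0.11 in *Pxr*-/-.

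Among 10 other ABCA and ABCG transporters, none was called for PCN in either genotype by limma, with 2 in WT and 4 in *Pxr*-/- at an unadjusted p under 0.05. *Abca8b*, a lipid transporter, was the 1 of 10 called for the interaction, where 0.078% of all probes were (1.04, SE 0.188, adjusted p 0.0235, limma), with a WT value of -0.54 (adjusted p 0.0504, limma) and a *Pxr*-/- value of 0.50 (adjusted p 0.0320, limma). *Abcg4*, a close relative of *Abcg1*, had a WT value of 0.53 (SE 0.0634, adjusted p 3.95e-05, limma), just under the fold threshold, with 5 of 5 WT PCN arrays above all controls, and a *Pxr*-/- value of 0.04. Its interaction was -0.49 (adjusted p 0.0221, limma), also under the fold threshold.

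Markers of other cells that express LXR targets were read beside these values. The mean level of 8 macrophage markers was 10.61 to 10.84 in WT CONT, 10.63 to 11.25 in WT PCN, 10.36 to 10.94 in *Pxr*-/- CONT and 10.73 to 11.16 in *Pxr*-/- PCN. PCN raised 0 of 8 in WT (3 at an unadjusted p under 0.05, limma) and 1 of 8 in *Pxr*-/-, *Cd68*, a macrophage lysosomal protein chosen after its values were seen (0.60, adjusted p 0.00695, limma), while 6 of 8 and 7 of 8 had a higher mean. The mean level of 5 neutrophil markers was 7.67 to 8.46 and 8.10 to 8.62 on the CONT arrays of WT and *Pxr*-/-, and 8.81 to 9.63 and 8.81 to 10.23 on their PCN arrays. That of 5 fibroblast markers was 12.54 to 12.84 in WT CONT, 12.40 to 13.61 in WT PCN, 12.13 to 12.96 in *Pxr*-/- CONT and 12.85 to 13.60 in *Pxr*-/- PCN. That of 5 smooth muscle markers was 14.31 to 14.55, 14.40 to 15.00, 14.19 to 14.85 and 14.58 to 15.32 in the same order. Chosen after their values were seen, the calls in these lists were *S100a8* and *S100a9*, 2 of 5 neutrophil markers, in both genotypes, and in *Pxr*-/- *Col1a1* and *Col3a1*, 2 of 5 fibroblast markers, and *Cnn1*, 1 of 5 smooth muscle markers. The neutrophil markers did not all move 1 way, with 4 of 5 higher with PCN in WT and 3 of 5 in *Pxr*-/-. In each genotype 4 of 5 had an unadjusted p under 0.05 (limma). All 5 fibroblast and all 5 smooth muscle markers had a higher mean with PCN in both genotypes, with medians of 0.33 and 0.34 in WT and 0.61 and 0.47 in *Pxr*-/-. Enterocyte markers overlapped in all 4 groups. The part of these cell types in the *Abca1*, *Abcg8*, *Ch25h* and *Mylip* values was not tested.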

How the data were processed

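Ileum RNA (150 ng) was hybridised to 1-colour Agilent arrays and read with Agilent Feature Extraction 10.10.1.1 (submitters' processing notes). Per the labels and the study's methods, the authors filtered the median intensity of spots, took log2, corrected for wash batch and normalised with CrossNorm, and the deposited table holds these log2 values for 37161 probes. The deposited scanner intensities, with probe positions on mm9, gave gene names and alternatives. All 23 columns of the table held 1 shared set of values. Names of probes were checked against RefSeq (of 56605, 32994 by accession, 10224 by name, 520 by older name, 12867 unmatched).

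Groups followed the labels. A limma 3.58.1 model (R 4.3.3) with 4 groups and wash batch gave 5 contrasts, adjusted by Benjamini-Hochberg over all probes. Data were also simulated for the PCN effect in WT over 37161 probes. By adjusted p alone, the model found 76.1% of probes changed 1.5-fold and 95.5% of those changed 2-fold, with 7 false calls. The simulated noise was normal, independent between probes and free of outlying arrays. These shares are therefore not the chance of finding a given member in the real data. Recovery under the full call rule, which adds the fold threshold, was not computed. Members and lists were chosen with earlier results of these data known. Named beside the members were up to 4 called genes of each pathway list by largest change, or where fewer than 2 were called the 2 with the largest PCN effect, 3 check genes, and the 3 genes most like *Abca1* and *Abcg5*. A gene that the rule names is not reported here. Correlations used scipy 1.17.1. P-values from limma set each difference against the spread between mice. Permutation p-values belong to correlations over all arrays pooled, so they also reflect differences between groups and not only the spread between mice within a group. With 5 or 6 arrays a group the number of arrays limits the precision. Replicate numbers did not pair the samples. Alternatives were scanner-based normalisations, wash batch, slide and replicate terms, subsets of arrays and the call rule.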

Additional observations from a re-analysis of the deposited data

Results flagged for a closer look

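Among 48 groups of member values (4 groups of 12 probes), 3 held an array far from the others, where chance alone flags about 1 in 20. *Pxr*-/- CONT replicate 4, an array of wash batch 1, was the highest of its 6 arrays for *Abcg5* (14.77, with the next at 14.41) and for *Abcg8* (12.46, with the next at 11.58). Without it the PCN effect in *Pxr*-/- was 0.01 for *Abcg5* (adjusted p 0.967, limma) and 0.54 for *Abcg8* (adjusted p 0.0625, limma). WT CONT replicate 4 was the lowest of 6 for the second *Nr1h3* probe (11.49, with the next at 11.72).

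In the interaction test, 2 genes of the list of other ABCA and ABCG transporters had an adjusted p under 0.05. For *Abca8b* the effect in *Pxr*-/- minus that in WT was 1.04 (adjusted p 0.0235, limma), and for *Abcg4* it was -0.49 (adjusted p 0.0221, limma). *Abcg4* stayed under the fold threshold, so only *Abca8b* was called, where 0.078% of all probes were. These genes were chosen after earlier results of these data were known.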

How the results depend on the processing

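Over 40 alternatives, *Abca1* was called for PCN in WT in 38, *Abca1* for the genotype difference with PCN in 37 and *Abcg5* for that difference in 39. Of 1593 recomputed values of members and correlations, 1518 kept direction and side of the threshold, and 351 of 389 counts stayed within 1.5 times. The cause of the changes was not tested, except that single wash batches and single pairs of groups hold fewer arrays. Within wash batch 1 the *Abca1* effect in WT was 0.88 and not called, 0 members were called in WT or between genotypes with PCN, probes called for PCN in WT, PCN in *Pxr*-/-, interaction, genotype without PCN and genotype with PCN numbered 47, 10, 3, 4 and 77, and signs turned for *Lpcat3* in WT (0.094), *Nr1h2* in *Pxr*-/- (0.031) and with PCN (0.12), and *Abcg1* without PCN (-0.085). Within wash batch 2 the *Abca1* effect in WT was 0.86 and not called, the same 5 counts of probes were 49, 159, 0, 21 and 47, members called were 0 in WT and 1 with PCN, and signs turned for *Abcg5* in *Pxr*-/- (0.10), *Abcg1* and *Lpcat3* interaction (-0.12 and 0.039), *Nr1h2* without PCN (-0.051) and *Nr1h3* with PCN (0.12). With slide as a fixed block *Abca1* was called in *Pxr*-/- (0.60), as the 1 member, interaction and genotype without PCN had 17 and 257 probes, 2 members were called without PCN (*Abcg8* and *Mylip*), and signs turned for *Abcg5* (0.013) and *Nr1h2* (0.00143) in *Pxr*-/- and *Nr1h2* with PCN (0.020). Fitting only the groups compared called 2 members in WT, with *Abcg8* at 0.73 (adjusted p 0.0382, limma), and 146 probes without PCN. Without the fold threshold 2 members were called in WT (*Abcg5* at 0.52) and 2 in *Pxr*-/- (*Abca1* at 0.49), with 488, 1375, 84 and 233 probes called for PCN in WT, PCN in *Pxr*-/- and genotype without and with PCN. *Lpcat3* in WT lay around 0 and turned sign with scanner median intensity (0.0053, with or without a filter), processed intensity (0.013), normexp (0.000219), only the groups compared (0.00415) and the mean of its probes (0.010), as did *Nr1h2* in WT with median centring (-0.032). Without the 3 arrays high in B cell markers, an alternative chosen after seeing the data, *Abcg1* in WT was -0.080 and 13 probes were called for the interaction. Leaving out each array in turn, the lowest and highest values were 205 and 282 probes and 1 and 2 members in WT, 232 and 429 probes in *Pxr*-/-, 19 and 39 for the interaction, and 33 and 113 probes and 0 and 1 members without PCN. For PCN in WT they were -0.016 and 0.16 for *Abcg1*, 0.63 and 0.84 for *Abcg8*, -0.049 and 0.046 for *Lpcat3* and -0.0061 and 0.064 for *Nr1h2*. In *Pxr*-/- they were -0.13 and 0.012 for *Abcg5* and -0.041 and 0.033 for *Nr1h2*. For the interaction they were -0.034 and 0.14 for *Abcg1* and -0.077 and 0.00289 for *Nr1h2*. Without PCN they were -0.086 and 0.00849 for *Lpcat3* and -0.0053 and 0.065 for *Nr1h2*, and with PCN -0.037 and 0.038 for *Nr1h2* and -0.075 and 0.059 for *Nr1h3*. *Abcg8* was called for genotype with PCN with slide as a fixed or random block (adjusted p 0.0397 and 0.0460, limma), no wash batch term (0.0468), median centring (0.0288), without the arrays high in B cell markers (0.0372), and without WT PCN replicates 1 or 3, *Pxr*-/- CONT replicate 4 or *Pxr*-/- PCN replicate 1. The replicate block, with numbers that did not pair the samples (mean correlation of 33 same-numbered pairs -0.00528, 7 of 23 arrays nearest to their own number), called 221, 303, 23, 50 and 127 probes and the same numbers of members, and moved *Nr1h3* with PCN to 0.011. No member was saturated, and the second *Abca1* probe was near background.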

Other observations

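Another *Nr1h2* probe (chr7:51808232-51808291, mm9) was outside the deposited table and well above background on 1 of 23 arrays, in *Pxr*-/- CONT. Over the 28 pairs of members 20 correlations were positive and 4 had an adjusted permutation p at or below 0.05, all of them positive. These pooled values include the differences between groups. Among the 4 were *Abca1* with *Abcg5* and with *Abcg8*, which correlated at 0.435 and 0.290 around group means. *Nr1h3* and *Abcg5* correlated at 0.599 around group means and *Mylip* and *Lpcat3* at 0.616, given as descriptions over 23 arrays.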
